A study of Homo sapiens with 21 samples.

Results

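The 10 genes described here encode the parts of the TGF-beta pathway that act in sequence: the ligands TGFB1, TGFB2 and TGFB3, the receptors TGFBR1, TGFBR2 and TGFBR3, the signal transducer SMAD3, the inhibitory SMADs SMAD6 and SMAD7, and TGFBI, a matrix protein named for its induction by TGF-beta. They were taken by name from a count table of 57820 genes. All 10 were detected in every library and all 10 were among the 30549 genes tested. The data are RNA-seq libraries of A673, an established Ewing sarcoma cell line that carries EWS/FLI, the fusion of the EWS amino-terminal domain with the DNA-binding part of the transcription factor FLI1. The 21 libraries fall into 7 groups of 3 replicate experiments.

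Every group received a retroviral shRNA on day 1 and a retroviral cDNA on day 5, and was kept under puromycin (2 µg/ml) and hygromycin (400 µg/ml) until day 16. The iLuc group carried an shRNA against luciferase and an empty vector, and so kept its endogenous fusion. The iEF group carried the shRNA against EWS/FLI and the empty vector. The other groups carried the same EWS/FLI shRNA and a FLAG-tagged cDNA: WT-EF, the full-length fusion; mut9, which keeps the start and the end of the EWS domain; DAF, the full-length fusion with tyrosines of the amino-terminal part of EWS changed to alanine; DAF-mut9, the shortened domain with its tyrosines changed likewise; and del22, which lacks the EWS domain. The question posed by the design was which features of the EWS domain the fusion needs to control its target genes. Everything rests on 1 cell line, on selected pools of cells and on 3 replicate experiments a group. The p-values use a spread between replicates that was estimated over all 21 libraries together. The columns named mut9d in the count table were read as DAF-mut9 because no other group remained for them, and all values given for DAF-mut9 stand or fall with it.

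TGF-beta ligands are secreted in a latent form that is held in the matrix until it is released. The active ligand binds the type II receptor TGFBR2, which recruits and phosphorylates the type I receptor TGFBR1, and the co-receptor TGFBR3 (betaglycan) presents ligand, TGFB2 above all, to that complex. The type I receptor phosphorylates SMAD2 and SMAD3, which join SMAD4 and enter the nucleus, and SMAD6 and SMAD7 restrain the signal, SMAD7 acting on TGF-beta receptors and SMAD6 mainly on the BMP branch. TGFBR2 is known in Ewing sarcoma as a gene that EWS/FLI represses.

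Library totals were 32.9 to 46.2 M counts, and 1 CPM (counts scaled to a common TMM-adjusted library size) stood for 32.0 to 45.2 counts. FLI1, whose reads include those of the fusion and of the constructs, was at 70.3 ± 16.2 CPM (SD, n = 3) in iLuc and at 20.6 ± 0.553 CPM in iEF (log2 difference 1.75 ± 0.14 SE, adjusted p = 1.33e-09). Among the cDNA groups FLI1 was called higher than in iEF in mut9 (0.57), DAF (0.84), DAF-mut9 (0.81) and del22 (1.25) on the log2 scale but not in WT-EF (0.24 ± 0.13, adjusted p = 0.196), so the constructs were not at equal transcript levels, and the part of this in the values below was not tested. EWSR1, whose reads include the other end of the fusion, was 0.37 ± 0.09 higher in iLuc than in iEF (adjusted p = 0.00265). The Ewing sarcoma markers NKX2-2, NR0B1, STEAP1, LIPI, PRKCB and CCND1 were all detected, while CD99, the usual surface marker, had at most 8 counts in any library. CD99 lies in a region shared by the X and Y chromosomes, where reads can map to both copies, so its counts do not show that it was absent. Of the markers of other cell types, PTPRC, CD68, EPCAM, CDH1, CDH5 and VWF had group means below 1 CPM and CD3E at most 2 counts in a library. PECAM1 was not analysed here. KRT8 and KRT18, which are also made outside epithelia, had group means of 8.84 to 19.2 and 31.3 to 73.1 CPM.

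The sequence just upstream of a start site is where a factor such as FLI1, which reads the ETS core GGAA, could meet a promoter, so the 250 bases before the first listed start are shown for members with unlike responses: TGFB1, which was not called in mut9; TGFBR2 and TGFBI, which WT-EF and mut9 both lowered; and SMAD6, which both raised. The sequences are from RefSeq on GRCh38.p14, 5' to 3' on the gene's strand, with GGAA and its reverse complement TTCC in capitals.
TGFB1 (chr19:41353923-41354172, minus strand): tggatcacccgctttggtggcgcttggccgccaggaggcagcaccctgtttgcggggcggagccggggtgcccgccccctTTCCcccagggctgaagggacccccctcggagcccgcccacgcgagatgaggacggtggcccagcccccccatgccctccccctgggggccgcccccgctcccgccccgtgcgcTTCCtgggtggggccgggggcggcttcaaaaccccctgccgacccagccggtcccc
TGFBR2 (chr3:30606106-30606355, plus strand): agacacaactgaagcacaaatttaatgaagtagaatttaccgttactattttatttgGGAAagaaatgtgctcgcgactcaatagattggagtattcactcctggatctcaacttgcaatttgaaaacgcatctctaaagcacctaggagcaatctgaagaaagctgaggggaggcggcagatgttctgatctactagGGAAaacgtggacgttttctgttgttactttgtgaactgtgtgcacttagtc
SMAD6 (chr15:66701986-66702235, plus strand): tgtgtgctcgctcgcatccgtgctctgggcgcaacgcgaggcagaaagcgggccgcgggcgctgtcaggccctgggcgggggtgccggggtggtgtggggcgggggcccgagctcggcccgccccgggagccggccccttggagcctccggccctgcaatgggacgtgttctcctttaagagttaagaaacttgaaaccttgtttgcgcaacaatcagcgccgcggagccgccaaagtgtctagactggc
TGFBI (chr5:136028738-136028987, plus strand): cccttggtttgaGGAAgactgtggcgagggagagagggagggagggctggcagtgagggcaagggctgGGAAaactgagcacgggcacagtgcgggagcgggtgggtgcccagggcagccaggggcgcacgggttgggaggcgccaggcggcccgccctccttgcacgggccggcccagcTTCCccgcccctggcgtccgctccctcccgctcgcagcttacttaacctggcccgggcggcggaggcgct

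The first windows of TGFB1, TGFBR2 and TGFBI held 2, 2 and 3 matches, and SMAD6 held 0. TGFBR2 has a second window, not printed, which held 4. The background was 27305 first-listed promoter windows of 250 bases, 1 per gene symbol. GGAA on either strand was found in 92.8% of them, with a median of 3 matches, so its presence sets no member apart. All 10 members had at least 1 window and together they had 25. Of these, the third TGFBR1 window held the most matches, 7, and was the only member window with the tandem GGAAGGAA. Its GGAA matches include those of the tandem, which was in 2.99% of the background windows. CCGGAA, which contains the core and was found in 14.8% of the background windows, was present in that TGFBR1 window and in the second SMAD7 window. Neither is a first-listed window, so the background shares are not of like windows. CAGAC, the SMAD box, was in 37.8% of the background windows and in none of the sequences printed above. No binding was measured in these libraries, and letters in a window are a description of the sequence.

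All 3 ligand genes were lower with the endogenous fusion or with WT-EF than in depleted cells. TGFB1 (ENSG00000105329, chromosome 19:41807492-41859827, minus strand, here and below on GRCh37), the most widely made ligand, was at 14.1, 14.6 and 15.01 CPM in iLuc, at 42.9, 30.2 and 28.6 CPM in iEF and at 25.9, 17.6 and 19.8 CPM in WT-EF. It was at 40.4, 37.4 and 36.4 CPM in mut9, at 54.6, 52.6 and 45.6 CPM in DAF, at 41.2, 39.5 and 36.8 CPM in DAF-mut9 and at 31.2, 31.8 and 28.6 CPM in del22. The iLuc and WT-EF libraries all lay below all iEF libraries, and the DAF libraries all lay above them. Relative to iEF, TGFB1 fell in both, with log2 differences of -1.20 ± 0.13 (± SE, the scale and error used throughout) in iLuc and -0.68 ± 0.13 in WT-EF (adjusted p = 1.38e-07 and 0.000284). In mut9 its log2 difference was 0.18, with a 95% interval of -0.08 to 0.44 (adjusted p = 0.407), and in DAF it rose by 0.60 ± 0.12 (adjusted p = 0.00433). TGFB1 shares 215 exon bases with HNRNPUL1 on the opposite strand, and since the strand setting of the counting is not given, how reads there were counted is not known.

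TGFB2 (ENSG00000092969, chromosome 1:218518678-218617961, plus strand), the ligand that needs TGFBR3 most, had the widest spread of the members. It was at 10.5, 18.6 and 2.66 CPM in iLuc, at 33.6, 189 and 40.3 CPM in iEF and at 10.5, 13.1 and 11.6 CPM in WT-EF. In mut9 it was at 26.2, 20.4 and 21.8 CPM, in DAF at 52.1, 98.6 and 77.9 CPM, in DAF-mut9 at 47.9, 75.8 and 76.0 CPM and in del22 at 50.7, 72.8 and 68.9 CPM. The second iEF library was far above the other iEF libraries, yet every iLuc, WT-EF and mut9 library lay below every iEF library. TGFB2 changed by -2.92 ± 0.47 in iLuc, -2.64 ± 0.46 in WT-EF and -1.62 ± 0.45 in mut9 relative to iEF (adjusted p = 3.08e-05, 0.000168 and 0.017). The call in mut9 rested on single libraries: the log2 difference was -0.82 (adjusted p = 0.189) without iEF replicate 2 and -1.26 (adjusted p = 0.133) without mut9 replicate 2. For DAF, DAF-mut9 and del22 the differences of 0.02, -0.14 and -0.19 had 95% intervals of -0.88 to 0.92, -1.05 to 0.76 and -1.10 to 0.71. TGFB2 shares 701 exon bases with TGFB2-AS1, and the same limit of strand holds.

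TGFB3 (ENSG00000119699, chromosome 14:76424440-76449354, minus strand), a ligand of mesenchymal tissues, was at 7.86, 8.86 and 10.9 CPM in iLuc, at 17.5, 36.5 and 17.2 CPM in iEF and at 11.8, 13.5 and 10.1 CPM in WT-EF. It was at 32.0, 27.2 and 17.0 CPM in mut9, at 25.7, 41.9 and 29.5 CPM in DAF, at 23.2, 27.4 and 24.0 CPM in DAF-mut9 and at 21.5, 29.3 and 14.8 CPM in del22. As with TGFB1, iLuc and WT-EF lay wholly below iEF and mut9 overlapped it. TGFB3 changed by -1.28 ± 0.23 in iLuc and -0.96 ± 0.23 in WT-EF (adjusted p = 0.000111 and 0.00281), and the mut9 difference of 0.15 had a 95% interval of -0.31 to 0.62. In DAF the difference was 0.49 ± 0.22 and was not called (adjusted p = 0.23), but it was 0.77 (adjusted p = 0.0499) without iEF replicate 2. TGFB3 shares 163 exon bases with TGFB3-AS1.

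**Figure D1:**
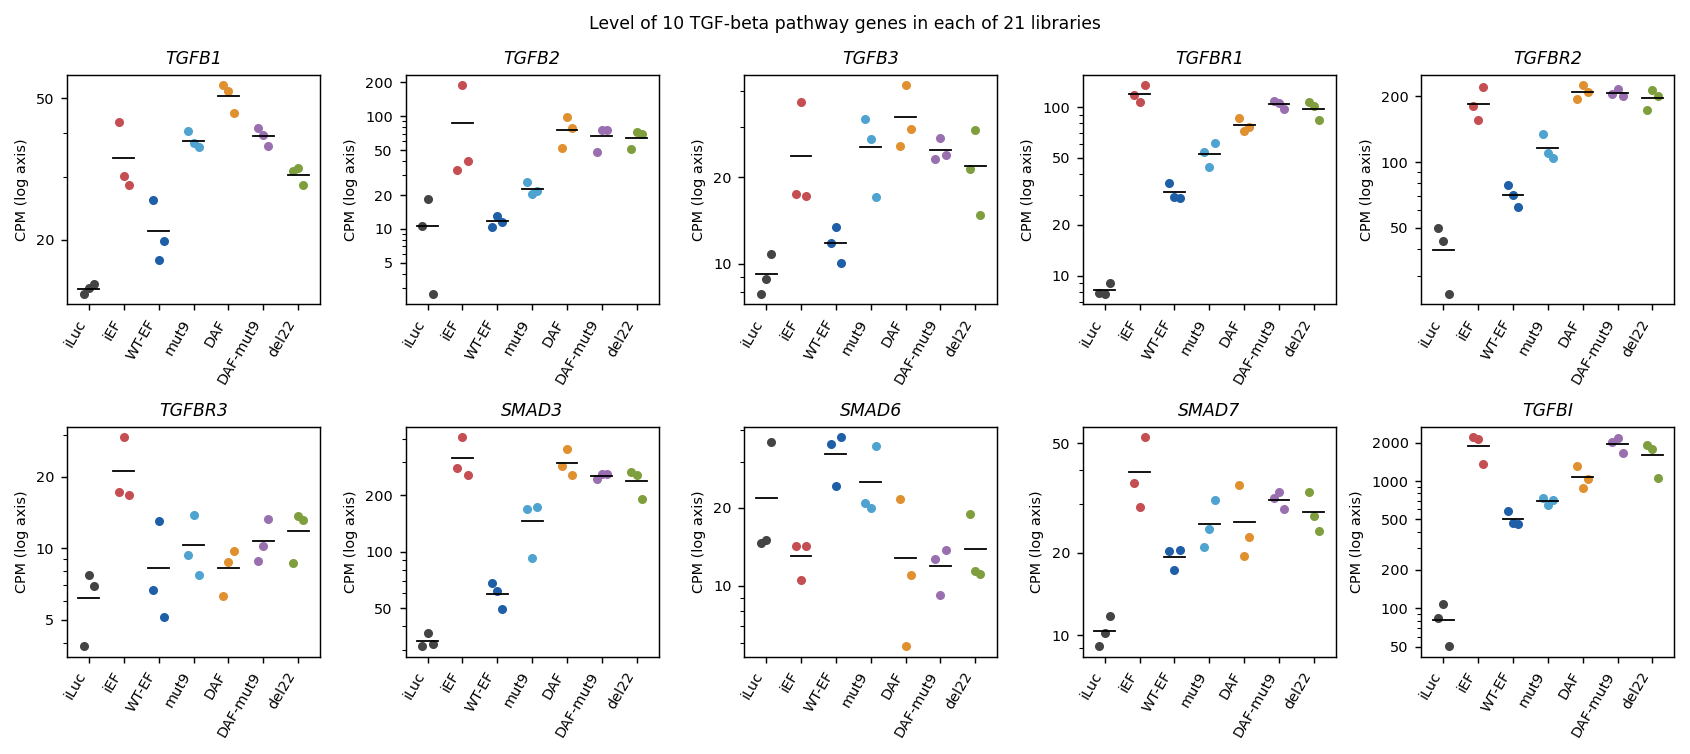
Level of each of the 10 genes in CPM (log axis) in the 7 groups. Each point is 1 library, in the order of replicates 1, 2 and 3, and the black line is the mean of 3. TGFBR1, SMAD3 and TGFBI are lowest in iLuc, next in WT-EF and then in mut9, and SMAD6 is highest in WT-EF.

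Both signalling receptors fell in iLuc, WT-EF and mut9. TGFBR1 (ENSG00000106799, chromosome 9:101866320-101916474, plus strand), the kinase that phosphorylates SMAD3, was at 7.91, 7.78 and 8.97 CPM in iLuc, at 119, 107 and 135 CPM in iEF and at 35.5, 29.2 and 29.0 CPM in WT-EF. It was at 53.8, 43.8 and 60.9 CPM in mut9, at 85.7, 72.4 and 76.1 CPM in DAF, at 108, 106 and 97.0 CPM in DAF-mut9 and at 107, 102 and 83.5 CPM in del22. The iLuc, WT-EF, mut9 and DAF groups did not overlap iEF or one another, and DAF reached into the range of del22. TGFBR1 changed by -3.87 ± 0.14 in iLuc (14.6-fold lower) and -1.95 ± 0.13 in WT-EF (3.86-fold lower), with adjusted p = 4.99e-14 and 8.69e-10. TGFBR1 also changed by -1.19 ± 0.13 in mut9 and -0.62 ± 0.12 in DAF (adjusted p = 1e-06 and 0.00295), and its differences of -0.21 in DAF-mut9 and -0.30 in del22 were not called (adjusted p = 0.475 and 0.247).

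TGFBR2 (ENSG00000163513, chromosome 3:30648093-30735634, plus strand), the ligand-binding kinase, was at 49.9, 43.6 and 24.9 CPM in iLuc, at 181, 155 and 220 CPM in iEF and at 78.2, 70.8 and 62.0 CPM in WT-EF. In mut9 it was at 134, 110 and 104 CPM, in DAF at 195, 226 and 210 CPM, in DAF-mut9 at 206, 216 and 200 CPM and in del22 at 173, 214 and 200 CPM. The iLuc, WT-EF and mut9 libraries formed separate ranges below iEF, and the other constructs overlapped iEF. TGFBR2 changed by -2.26 ± 0.19 in iLuc and -1.41 ± 0.18 in WT-EF (adjusted p = 3.65e-09 and 4.03e-06), and by -0.69 ± 0.18 in mut9 (adjusted p = 0.0107). The last of these was -0.48 (adjusted p = 0.104) without iEF replicate 3, -0.64 (0.0612) without mut9 replicate 2 and -0.65 (0.0518) without mut9 replicate 3. Differences in DAF, DAF-mut9 and del22 were 0.18, 0.15 and 0.07, and their 95% intervals, -0.19 to 0.54, -0.21 to 0.52 and -0.29 to 0.44, did not reach the size of the WT-EF decrease.

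TGFBR3 (ENSG00000069702, chromosome 1:92145900-92371892, minus strand) was at 3.88, 7.69 and 6.92 CPM in iLuc, at 17.2, 29.3 and 16.7 CPM in iEF and at 6.70, 13.1 and 5.13 CPM in WT-EF. It was at 9.41, 13.8 and 7.74 CPM in mut9, at 6.28, 8.74 and 9.79 CPM in DAF, at 8.86, 10.2 and 13.2 CPM in DAF-mut9 and at 8.67, 13.7 and 13.1 CPM in del22. Here every library of the other 6 groups lay below every iEF library, and since all comparisons share the iEF libraries, their common sign is not independent. TGFBR3 changed by -1.78 ± 0.25 in iLuc, -1.36 ± 0.24 in WT-EF, -1.01 ± 0.24 in mut9 and -1.32 ± 0.24 in DAF (adjusted p = 4.91e-06, 0.000176, 0.00545 and 0.00155). It fell by 0.92 ± 0.24 in DAF-mut9 (adjusted p = 0.0353), a call lost without iEF replicate 1 (adjusted p = 0.0833), iEF replicate 2 (0.101), DAF-mut9 replicate 1 (0.129) or DAF-mut9 replicate 2 (0.231). The del22 difference was -0.82 ± 0.24 (adjusted p = 0.0759), which DESeq2 called (adjusted p = 0.0232).

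Of the SMADs, SMAD3 followed the receptors and SMAD6 went the other way. SMAD3 (ENSG00000166949, chromosome 15:67356101-67487511, plus strand) was at 31.4, 36.8 and 32.1 CPM in iLuc, at 279, 407 and 258 CPM in iEF and at 68.0, 62.1 and 49.3 CPM in WT-EF. It was at 169, 92.5 and 174 CPM in mut9, at 285, 352 and 256 CPM in DAF, at 244, 260 and 260 CPM in DAF-mut9 and at 266, 257 and 192 CPM in del22. The iLuc, WT-EF and mut9 groups lay in 3 separate ranges, all below iEF. SMAD3 changed by -3.23 ± 0.22 in iLuc (9.35-fold lower), -2.39 ± 0.21 in WT-EF (5.25-fold lower), and -1.09 ± 0.20 in mut9 (2.13-fold lower), with adjusted p = 1.67e-10, 2.84e-08 and 0.000639. In DAF the log2 difference was -0.08 with a 95% interval of -0.49 to 0.34. SMAD3 shares 182 exon bases with ENSG00000259347 on the opposite strand.

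SMAD6 (ENSG00000137834, chromosome 15:66994574-67075187, plus strand) was at 14.6, 15.1 and 35.9 CPM in iLuc, at 14.2, 10.5 and 14.3 CPM in iEF and at 35.2, 24.2 and 37.5 CPM in WT-EF. It was at 20.8, 20.03 and 34.6 CPM in mut9, at 21.6, 5.85 and 11.04 CPM in DAF, at 12.7, 9.22 and 13.7 CPM in DAF-mut9 and at 19.0, 11.4 and 11.1 CPM in del22. All WT-EF and mut9 libraries lay above all iEF libraries, while the third iLuc library stood well above the other iLuc libraries. SMAD6 rose by 1.30 ± 0.30 in WT-EF, 2.46-fold, and by 0.95 ± 0.30 in mut9 (adjusted p = 0.0022 and 0.0363). Its difference in iLuc, 0.72 ± 0.30, was not called (adjusted p = 0.0609), and was 1.02 (adjusted p = 0.011) without iLuc replicate 1. The mut9 call was lost without iEF replicate 1 (adjusted p = 0.0947), iEF replicate 2 (0.0562), iEF replicate 3 (0.138), mut9 replicate 2 (0.132) or mut9 replicate 3 (0.154).

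SMAD7 (ENSG00000101665, chromosome 18:46446223-46477335, minus strand), itself a gene that TGF-beta signalling is known to induce, moved with the receptors and not with SMAD6. It was at 9.14, 10.2 and 11.7 CPM in iLuc, at 35.7, 29.2 and 52.5 CPM in iEF and at 20.3, 17.3 and 20.4 CPM in WT-EF. In mut9 it was at 20.9, 24.4 and 31.0 CPM, in DAF at 35.3, 19.4 and 22.9 CPM, in DAF-mut9 at 31.5, 33.1 and 28.8 CPM and in del22 at 33.4, 27.2 and 23.9 CPM. SMAD7 changed by -1.90 ± 0.21 in iLuc, -1.01 ± 0.20 in WT-EF and -0.61 ± 0.20 in mut9 (adjusted p = 2.63e-07, 0.000725 and 0.0491), with the mut9 libraries overlapping those of iEF. That last call was lost without iEF replicate 3 (-0.37, adjusted p = 0.325), mut9 replicate 1 (-0.45, 0.24) or mut9 replicate 2 (-0.66, 0.0958). The DAF difference of -0.59 ± 0.20 was close in size and not called (adjusted p = 0.0889), and was -0.89 (adjusted p = 0.0149) without DAF replicate 1.

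TGFBI (ENSG00000120708, chromosome 5:135364677-135399507, plus strand), a secreted protein that links collagen to integrins, was the most abundant member and spanned the widest range of group means. It was at 83.5, 108 and 50.4 CPM in iLuc, at 2207, 2129 and 1352 CPM in iEF and at 581, 472 and 462 CPM in WT-EF. It was at 732, 648 and 704 CPM in mut9, at 1312, 886 and 1038 CPM in DAF, at 2021, 2175 and 1667 CPM in DAF-mut9 and at 1920, 1800 and 1054 CPM in del22. The groups iLuc, WT-EF, mut9 and DAF stood in that rising order in separate ranges, DAF also wholly below iEF. TGFBI changed by -4.56 ± 0.21 in iLuc (23.6-fold lower), -1.88 ± 0.19 in WT-EF (3.69-fold lower), and -1.41 ± 0.19 in mut9 (2.65-fold lower), with adjusted p = 1.07e-12, 1.96e-07 and 1.81e-05. In DAF it fell by 0.78 ± 0.18 (adjusted p = 0.0109), which was -0.59 (adjusted p = 0.0907) without DAF replicate 2, and in DAF-mut9 the difference was 0.07 with a 95% interval of -0.32 to 0.45. These are RNA levels of whole cultures, in which fewer cells of a kind and less RNA in each cell cannot be told apart.

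The members were also counted by comparison with iEF, and these comparisons share the same iEF libraries. In iLuc 9 members fell and 0 rose, where 22.4% of all genes tested were called lower and 18.7% higher. WT-EF lowered 9 and raised 1, SMAD6, against 16.9% and 11.4% of all genes, and mut9 lowered 7 and raised 1 against 8.33% and 6.22%. With DAF, TGFBR1, TGFBR3 and TGFBI fell and TGFB1 rose, against 4.02% and 3.41% of all genes. DAF-mut9 lowered TGFBR3 alone, against 2.14% lower and 1.26% higher over all genes. For del22 edgeR called 0 members, with 3 at an unadjusted p below 0.05 and 1 called by DESeq2, against 1.79% and 0.881%. The median log2 difference of the 10 members was -2.08 in iLuc, -1.39 in WT-EF, -0.85 in mut9, -0.081 in DAF, -0.14 in DAF-mut9 and -0.23 in del22, while the median over all genes stayed between -0.033 and 0.022.

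**Figure D2:**
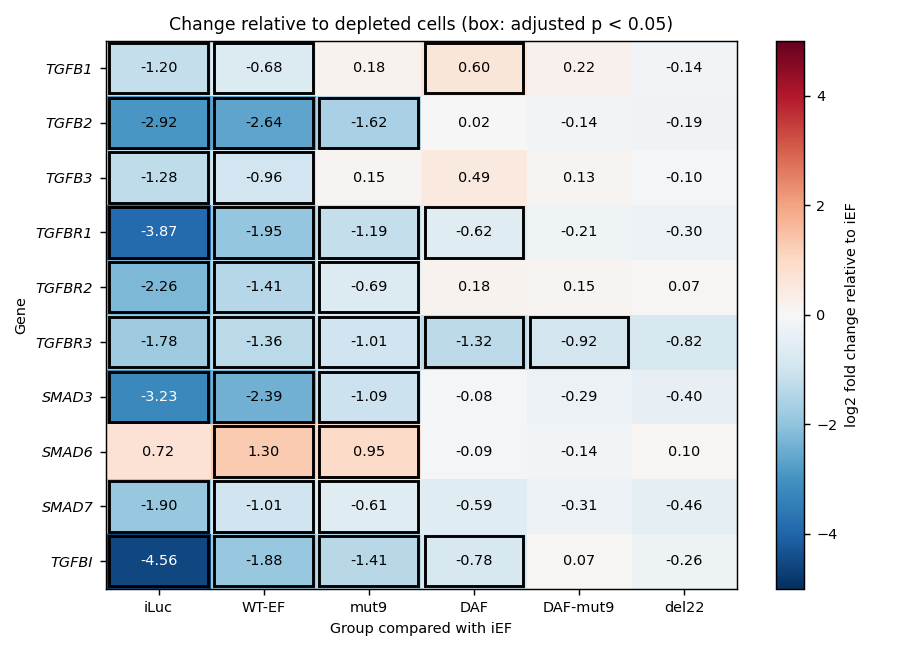
Log2 fold change of each gene (rows) relative to iEF in 6 groups (columns), in colour and as a number, with boxes around those called at an adjusted p below 0.05. The iLuc, WT-EF and mut9 columns hold 9, 10 and 8 boxes and the DAF column 4, and SMAD6 is the only gene boxed in red in the WT-EF and mut9 columns.

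Set directly against the endogenous fusion, WT-EF did not bring the members to the iLuc level. Between WT-EF and iLuc, 6 members differed, all higher in WT-EF, against 18.3% of all genes. TGFBI was 2.68 ± 0.20 higher (6.41-fold) and TGFBR1 1.92 ± 0.13 higher (3.79-fold), with adjusted p = 5.43e-09 and 2.21e-09. SMAD7 (0.89), TGFBR2 (0.85), SMAD3 (0.83) and TGFB1 (0.52) were higher by less (adjusted p of 0.0019 to 0.00568). TGFB2, TGFB3, TGFBR3 and SMAD6 were not called, and the 95% interval for TGFB2 ran from -0.66 to 1.22. Without iLuc replicate 3, SMAD6 was called as well (1.00, adjusted p = 0.0211).

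Shortening the EWS domain left 5 members higher than with the full-length fusion, where 6.15% of all genes were called between mut9 and WT-EF. SMAD3 was 1.30 ± 0.20 higher in mut9 (adjusted p = 0.000446), TGFB3 1.11 ± 0.23 (0.00419), TGFB1 0.86 ± 0.13 (0.000258), TGFBR1 0.76 ± 0.13 (0.000756) and TGFBR2 0.72 ± 0.18 (0.0163). The TGFB3 call was lost without WT-EF replicate 2 (adjusted p = 0.0504) or mut9 replicate 1 (0.0782), and the TGFBR2 call without WT-EF replicate 2 (0.101), WT-EF replicate 3 (0.113) or mut9 replicate 1 (0.128). For TGFB2 the difference was of like size, 1.01 ± 0.44, but uncertain (adjusted p = 0.22), and for TGFBI it was 0.48 with a 95% interval of 0.09 to 0.86 (adjusted p = 0.151).

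Changing the tyrosines of the full-length domain moved 8 members between DAF and WT-EF, where 24.9% of all genes were called. TGFB2 was 2.66 ± 0.46 higher in DAF, SMAD3 2.32 ± 0.21, TGFBR2 1.59 ± 0.18, TGFB3 1.44 ± 0.23, TGFBR1 1.32 ± 0.13, TGFB1 1.28 ± 0.13 and TGFBI 1.10 ± 0.19, and SMAD6 was lower by 1.39 ± 0.30 (adjusted p from 7.95e-08 to 0.00157). These are the 3 ligands, both kinases, the transducer and the matrix protein, with the inhibitory SMAD6 opposite. TGFBR3 and SMAD7 were not called (0.04 and 0.42). None of these 8 calls was lost when any library was left out.

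Without the EWS domain the same question is put by WT-EF against del22, where 25.2% of all genes and 8 members were called. WT-EF was lower for TGFB2 (-2.45 ± 0.45), SMAD3 (-1.99 ± 0.21), TGFBR1 (-1.64 ± 0.13), TGFBI (-1.62 ± 0.19), TGFBR2 (-1.48 ± 0.18), TGFB3 (-0.86 ± 0.23) and TGFB1 (-0.54 ± 0.13) and higher for SMAD6 (1.20 ± 0.30), with adjusted p from 7.85e-09 to 0.00701. SMAD7 and TGFBR3 were both at -0.55 and not called (adjusted p = 0.0533 and 0.107). Without del22 replicate 3 the SMAD7 difference was -0.71 (adjusted p = 0.0245), and without WT-EF replicate 2 the TGFBR3 difference was -0.80 (adjusted p = 0.0392).

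The shortened and the tyrosine-changed domain were also set against each other. Of the members, 7 were called between mut9 and DAF, against 6.61% of all genes: SMAD3 (-1.02 ± 0.20, adjusted p = 0.00298), TGFBR2 (-0.86 ± 0.18, 0.00423) and TGFBR1 (-0.57 ± 0.12, 0.00712) were lower in mut9, as were TGFB2 (-1.64, 0.0267), TGFBI (-0.62, 0.046) and TGFB1 (-0.42, 0.0474), and SMAD6 was higher (1.03, 0.043). SMAD3 and TGFBR2 alone held whichever library was left out. TGFBR1 was lost without mut9 replicate 2 (adjusted p = 0.0715) and TGFB1 without any of the 6 libraries compared (0.0622 to 0.22). TGFB2 was lost without DAF replicate 2 or 3 or mut9 replicate 2 or 3 (0.0664 to 0.173), TGFBI without DAF replicate 1 or 3 or mut9 replicate 1 or 2 (0.16 to 0.229), and SMAD6 without DAF replicate 2 or 3 or mut9 replicate 2 or 3 (0.162 to 0.266). Without DAF replicate 1 the SMAD6 difference was 1.58.

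Against del22, mut9 was lower for TGFBR1 (-0.89 ± 0.12, adjusted p = 5.36e-05), TGFBI (-1.15 ± 0.19, 0.000252), TGFBR2 (-0.76 ± 0.18, 0.00731), SMAD3 (-0.69 ± 0.20, 0.031) and TGFB2 (-1.43 ± 0.44, 0.0437), 5 members against 9.17% of all genes. Of these calls, TGFBR2 was lost without mut9 replicate 2 (adjusted p = 0.0527) and SMAD3 without del22 replicate 1 (0.129), del22 replicate 2 (0.0963) or mut9 replicate 2 (-0.38, 0.197). TGFB2 was lost without any del22 library or without mut9 replicate 2 or 3 (0.0554 to 0.235). DAF and del22 differed in TGFB1 alone, which was 0.73 ± 0.12 higher in DAF (adjusted p = 0.00272), against 0.972% of all genes, and every DAF library was above every del22 library. Between DAF-mut9 and del22 edgeR called no gene, 0.0% of all genes, with 671 genes and 1 member, TGFB1 (0.36 ± 0.12), at an unadjusted p below 0.05, and DESeq2 and limma called 0 members.

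In the shortened domain, changing the tyrosines moved 6 members between DAF-mut9 and mut9, against 9.83% of all genes. TGFBI was 1.47 ± 0.19 higher in DAF-mut9 (adjusted p = 1.56e-05), TGFBR1 0.98 ± 0.12 (1.58e-05), TGFBR2 0.84 ± 0.18 (0.00313), SMAD3 0.80 ± 0.20 (0.0114) and TGFB2 1.48 ± 0.44 (0.0348), and SMAD6 was lower by 1.08 ± 0.30 (0.0227). SMAD3 was lost without mut9 replicate 2 (0.50, adjusted p = 0.0591) or DAF-mut9 replicate 3 (0.07). TGFB2 was lost without mut9 replicate 2 or 3 or any DAF-mut9 library (0.0501 to 0.196), and SMAD6 without mut9 replicate 2 or 3 or any DAF-mut9 library (0.0694 to 0.106). TGFB1 (0.04, 95% interval -0.22 to 0.30) and TGFB3 (-0.02, -0.49 to 0.44) were not called.

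The effect of changing tyrosines was compared between the full-length and the shortened domain as an interaction, although the tyrosines changed are not the same set in both. The interaction was called for 3 members against 3.33% of all genes, each smaller in the shortened domain: SMAD3 (-1.52 ± 0.28, adjusted p = 0.00318), TGFB3 (-1.47 ± 0.32, 0.0103) and TGFB1 (-1.24 ± 0.18, 0.000269). For TGFB1 and SMAD3 the sign was the same in all 3 replicate sets, from -1.05 to -1.50 and from -1.01 to -1.79, and it was so for TGFB3 too, from -1.05 to -1.63. TGFB3 was lost without WT-EF replicate 2 (adjusted p = 0.0572) or mut9 replicate 1 (0.0737), which leaves 2 members called. Relative to iEF, mut9 was not called lower for TGFB1 (0.18, adjusted p = 0.407) or TGFB3 (0.15, adjusted p = 0.745). For both genes a smaller effect of the tyrosines therefore cannot be told apart from the lack of a called decrease in mut9. SMAD3 fell by less in mut9 (-1.09) than in WT-EF (-2.39) relative to iEF. Its smaller tyrosine effect cannot be told apart from that weaker decrease. TGFBI, whose tyrosine effect was 1.10 in the full-length and 1.47 in the shortened domain, had an interaction of 0.37 with a 95% interval of -0.17 to 0.91.

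**Figure D3:**
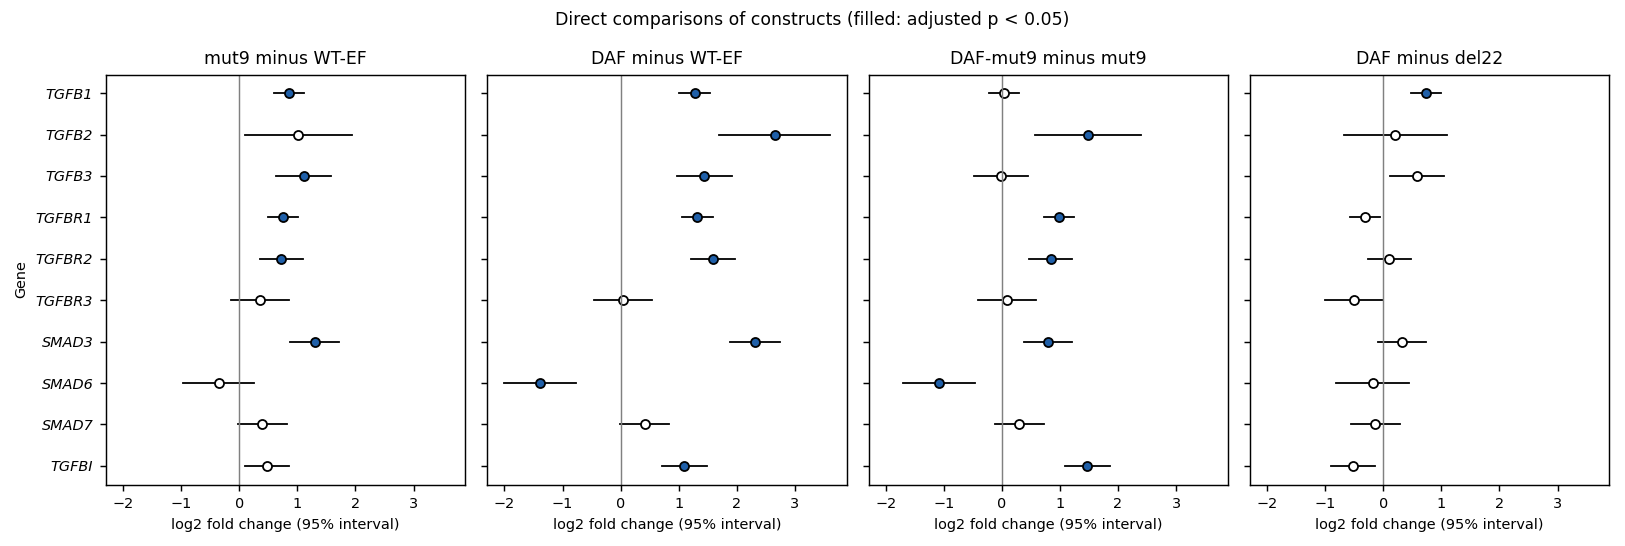
Log2 fold change (point) and 95% interval (line) of each gene in 4 direct comparisons of constructs, with filled points called at an adjusted p below 0.05. In the DAF minus WT-EF panel 8 points are filled and SMAD6 is left of zero, and in the DAF-mut9 minus mut9 panel TGFB1 and TGFB3 lie on zero.

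Levels of different genes can be set side by side per kilobase of exon, and on that scale the balance of ligands and receptors differed between groups. In iLuc the most abundant member was TGFBI (10.4 ± 3.75 CPM per kb), followed by TGFBR2 (5.76 ± 1.90) and TGFB1 (4.46 ± 0.143), and TGFBR1 (1.03 ± 0.0817) and TGFBR3 (0.718 ± 0.235) were lowest. In iEF TGFBI was at 246 ± 61.2, SMAD3 at 31.4 ± 8.07 and TGFBR2 at 27.1 ± 4.79 CPM per kb, and SMAD6 (1.52 ± 0.249) was lowest. SMAD2, the other TGF-beta transducer, was at 5.07 ± 0.64 CPM per kb in iLuc and 4.93 ± 0.286 in iEF. On this scale the SMAD3 level was below that of SMAD2 in iLuc (3.34 ± 0.294) and above it in iEF, as a description with no test. These levels depend on the annotated exon lengths used, 36426 bases for SMAD2 and 10011 for SMAD3.

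TGFB1 made up 56.7 ± 8.12% of the summed ligand CPM per kb in iLuc, 60.3 ± 6.71% in WT-EF and 57.8 ± 3.87% in mut9. TGFB2 made up 36.1 ± 6.66% in DAF, 39.3 ± 6.67% in DAF-mut9 and 43.9 ± 5.77% in del22, against 18.4 ± 3.49% in WT-EF and 18.6 ± 1.61% in mut9, and no library of the former groups overlapped one of the latter. In iEF the ligand shares were too spread to order, 42.2 ± 21.1% for TGFB2, with the second library apart from the others. Among the receptors TGFBR2 had the largest share in every library. TGFBR1 made up 14.5 ± 4.98% of the receptors in iLuc and 33.8 ± 0.588% in iEF, and no test was made of these shares.

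**Figure D4:**
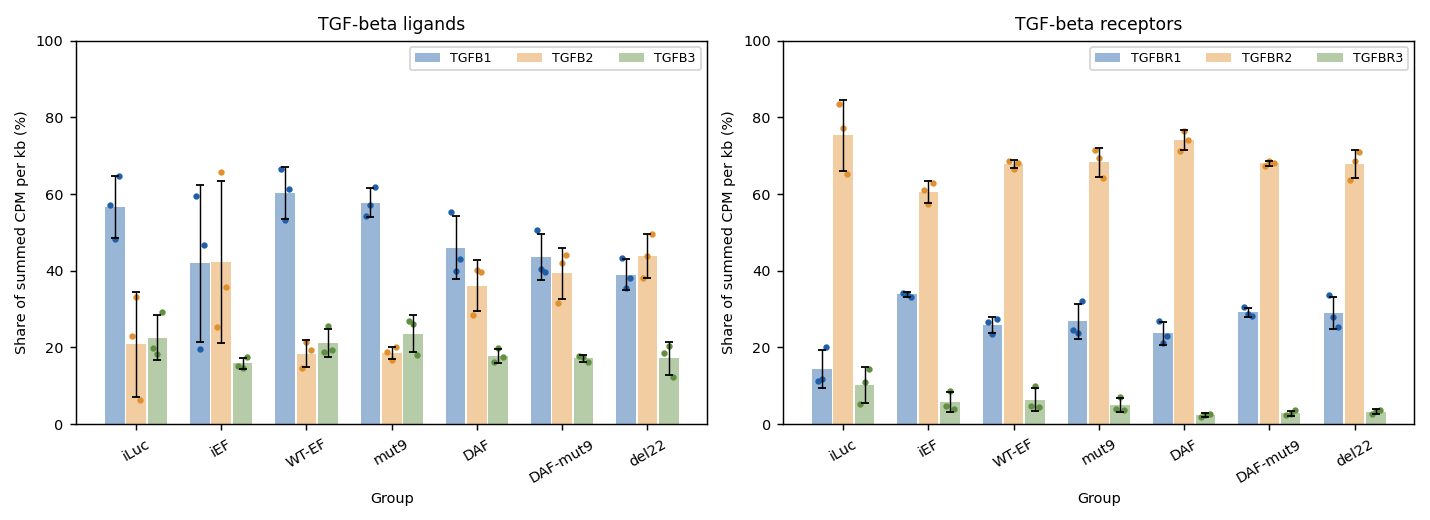
Share of the summed CPM per kb of the 3 ligand genes (left) and the 3 receptor genes (right) in each group, in percent. Bars are means of 3 libraries, error bars are SD and points are libraries. The TGFB2 share is 18.4% in WT-EF and 18.6% in mut9 and 36.1% or more on average in DAF, DAF-mut9 and del22, and the TGFBR1 share is lowest in iLuc.

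Beyond the 10 members, 76 genes of the wider TGF-beta and BMP system were listed by role, of which 73 were tested. In iLuc 45 of them fell and 12 rose relative to iEF, and in WT-EF 37 fell and 11 rose, with medians of -1.20 and -0.63 on the log2 scale. In mut9 21 fell and 9 rose, and in DAF 8 fell and 11 rose. DAF-mut9 had 5 of each, and del22 had 6 lower and 4 higher. The shares of all genes called in each direction are those given above for the members, and they apply to the counts by role below. Several genes named below share exon bases with a gene on the opposite strand, where how reads were counted is not known. They include NEDD4L (1001 bases), SMAD5 (610), ACVR2A (541), BHLHE40 (451), THBS1 (448), GREM1 (367) and BMP6 (212).

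Of the genes that store and release latent TGF-beta, 10 of 11 tested fell and 1 rose in iLuc, 10 fell and 0 rose in WT-EF, and 3 fell and 0 rose in mut9. THBS1 (thrombospondin 1, an activator of latent TGF-beta) was at 1.03 ± 0.152 CPM in iLuc, 87.6 ± 7.90 in iEF, 5.52 ± 0.640 in WT-EF, 21.6 ± 4.15 in mut9 and 138 ± 8.80 in DAF. THBS1 changed by -6.40 ± 0.18 in iLuc, -3.99 ± 0.15 in WT-EF and -2.02 ± 0.14 in mut9, and rose by 0.65 ± 0.13 in DAF (adjusted p = 2.89e-15, 1.37e-12, 2.54e-09 and 0.00338). LTBP1, which tethers the latent complex to the matrix, changed by -5.98 ± 0.23 in iLuc, -3.90 ± 0.20 in WT-EF, -2.84 ± 0.19 in mut9, -2.26 ± 0.19 in DAF, -0.80 ± 0.18 in DAF-mut9 and -0.93 ± 0.18 in del22 (adjusted p from 1.13e-13 to 0.0159). LRRC32 (GARP), which holds latent TGF-beta at the cell surface, had 2, 3 and 2 counts in the iLuc libraries and fell by 3.14 ± 0.44 in WT-EF and rose by 1.32 ± 0.38 in DAF (adjusted p = 1.27e-05 and 0.0355). LTBP4 rose by 0.80 ± 0.19 in iLuc and its difference in WT-EF was -0.26 (adjusted p = 0.349).

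Among 14 other ligands tested, 6 fell and 3 rose in iLuc, and 6 fell and 2 rose in WT-EF. Of all genes, 22.4% were called lower and 18.7% higher in iLuc, and 16.9% and 11.4% in WT-EF. INHBA, the activin A subunit, was at 1.80 ± 1.00 CPM in iLuc, 275 ± 89.3 in iEF, 7.26 ± 0.744 in WT-EF, 27.3 ± 9.05 in mut9 and 53.6 ± 19.1 in DAF. INHBA changed by -7.25 ± 0.35, -5.19 ± 0.31, -3.31 ± 0.28 and -2.33 ± 0.27 in these 4 groups, and -1.78 ± 0.26 in DAF-mut9 and -1.90 ± 0.26 in del22 (adjusted p from 1.42e-12 to 0.000705). INHBA shares 248 exon bases with INHBA-AS1, and how reads there were counted is not known. BMP6 changed by -2.26 ± 0.19 in iLuc, -1.77 ± 0.18 in WT-EF, -1.47 ± 0.18 in mut9 and -0.79 ± 0.18 in DAF (adjusted p from 4.59e-09 to 0.00799). GDF6 rose by 2.82 ± 0.19 in iLuc, by 2.98 ± 0.20 in WT-EF and by 1.81 ± 0.19 in mut9, and its difference in DAF was 0.19 (adjusted p = 0.668). GDF11, a ligand of the activin receptors, rose in every group, by 1.18 ± 0.12 in iLuc, by 0.91 ± 0.12 in WT-EF and by 0.66 ± 0.12 in mut9 (adjusted p = 5.25e-08, 4.28e-06 and 0.000427), and shares 378 exon bases with SARNP.

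Other receptors moved both ways, 5 of 10 lower and 3 higher in iLuc. Endoglin (ENG), a co-receptor, changed by -1.32 ± 0.15 in iLuc and -0.72 ± 0.15 in WT-EF and rose by 0.83 ± 0.15 in DAF (adjusted p = 4.26e-07, 0.000898 and 0.00117), with 313 exon bases shared with ENSG00000225032. ACVR1 changed by -1.41 ± 0.18 in iLuc, -1.55 ± 0.18 in WT-EF and -0.76 ± 0.18 in mut9 (adjusted p = 1.81e-06, 1.29e-06 and 0.00504). BMPR2 changed by -0.40 ± 0.14 in iLuc and -0.38 ± 0.14 in WT-EF and rose by 0.46 ± 0.14 in DAF (adjusted p = 0.0263, 0.0481 and 0.0489). The activin and BMP receptors ACVR2B, ACVR2A and BMPR1A rose in iLuc by 1.36 ± 0.16, by 1.30 ± 0.14 and by 0.83 ± 0.11 (adjusted p = 5.55e-07, 1.87e-07 and 2.46e-06). In WT-EF ACVR2A and BMPR1A rose, by 0.58 ± 0.14 and by 0.68 ± 0.11, and the ACVR2B difference was 0.34 (adjusted p = 0.128).

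Of the 5 other SMADs, SMAD9, a BMP transducer, was the only one called in any group relative to iEF. It rose by 1.98 ± 0.19 in iLuc, by 1.91 ± 0.19 in WT-EF and by 1.48 ± 0.19 in mut9 (adjusted p = 3.27e-08, 1.59e-07 and 9.91e-06), and its difference in DAF was 0.37 (adjusted p = 0.296). SMAD2 and SMAD4, the partners of SMAD3, had differences of 0.04 ± 0.09 and 0.05 ± 0.10 in iLuc and of -0.25 ± 0.09 and -0.03 ± 0.10 in WT-EF (adjusted p = 0.783, 0.737, 0.0563 and 0.865). SMAD1 and SMAD5 had differences of 0.39 ± 0.16 and -0.03 ± 0.09 in iLuc (adjusted p = 0.0577 and 0.819).

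Secreted inhibitors were called lower for 5 of 7 in iLuc and 3 of 7 in WT-EF, each with 1 higher. Follistatin (FST), which binds activin, changed by -4.34 ± 0.36 in WT-EF, -4.07 ± 0.36 in mut9 and -3.03 ± 0.34 in DAF (adjusted p = 1.75e-08, 9.43e-08 and 8.57e-06), from 32.5 ± 17.3 CPM in iEF. In iLuc FST had 4, 4 and 6 counts. GREM1, a BMP antagonist, changed by -6.35 ± 0.55 in iLuc, -4.11 ± 0.47 in WT-EF, -2.63 ± 0.43 in mut9 and -1.91 ± 0.42 in DAF (adjusted p from 7.61e-09 to 0.00609). FSTL3, a follistatin relative, changed by -2.76 ± 0.23 in iLuc, -2.73 ± 0.23 in WT-EF and -1.62 ± 0.22 in mut9 (adjusted p = 4.91e-09, 2.13e-08 and 2.44e-05).

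Of 12 intracellular regulators, 6 were called lower and 2 higher in iLuc and 5 lower and 2 higher in WT-EF. PMEPA1, a TGF-beta-induced brake on SMAD signalling, changed by -2.80 ± 0.20 in iLuc and -1.69 ± 0.19 in WT-EF (adjusted p = 5.53e-10 and 9.87e-07) and its difference in mut9 was -0.52 (adjusted p = 0.0716). The ubiquitin ligase SMURF2 changed by -1.96 ± 0.18 in iLuc, -1.62 ± 0.18 in WT-EF and -1.18 ± 0.18 in mut9 (adjusted p = 2.28e-08, 7.53e-07 and 8.88e-05), with a difference of -0.24 in DAF (adjusted p = 0.53). NEDD4L, another ubiquitin ligase called lower in all 6 groups, changed by -1.58 ± 0.21 in iLuc, -2.20 ± 0.21 in WT-EF and -0.91 ± 0.20 in del22 (adjusted p = 2.71e-06, 1.13e-07 and 0.0188). TGIF2, a SMAD co-repressor, rose by 0.96 ± 0.12 in iLuc and by 0.62 ± 0.12 in WT-EF (adjusted p = 1.15e-06 and 0.000431), and ZFYVE9, which anchors SMADs for the receptor, rose by 0.37 ± 0.12 in iLuc (adjusted p = 0.0126).

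Of 14 genes known to respond to TGF-beta or BMP, 13 fell and 1 rose in iLuc, 8 fell and 1 rose in WT-EF, 4 fell and 0 rose in mut9, and 1 fell and 2 rose in DAF. BHLHE40 changed by -4.80 ± 0.24 in iLuc and -2.55 ± 0.21 in WT-EF, and SNAI2, a mesenchymal repressor, changed by -4.06 ± 0.36 and -1.05 ± 0.31 (adjusted p from 2.57e-12 to 0.0141). ID2, which BMP signalling induces, was the 1 gene that rose in iLuc and WT-EF, by 2.06 ± 0.26 and by 1.13 ± 0.25 (adjusted p = 1.37e-06 and 0.00174). ID1 and ID3, on the same list, were not called higher in either group. In iLuc every tested gene of this list other than ID2 was called lower.

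**Figure D5:**
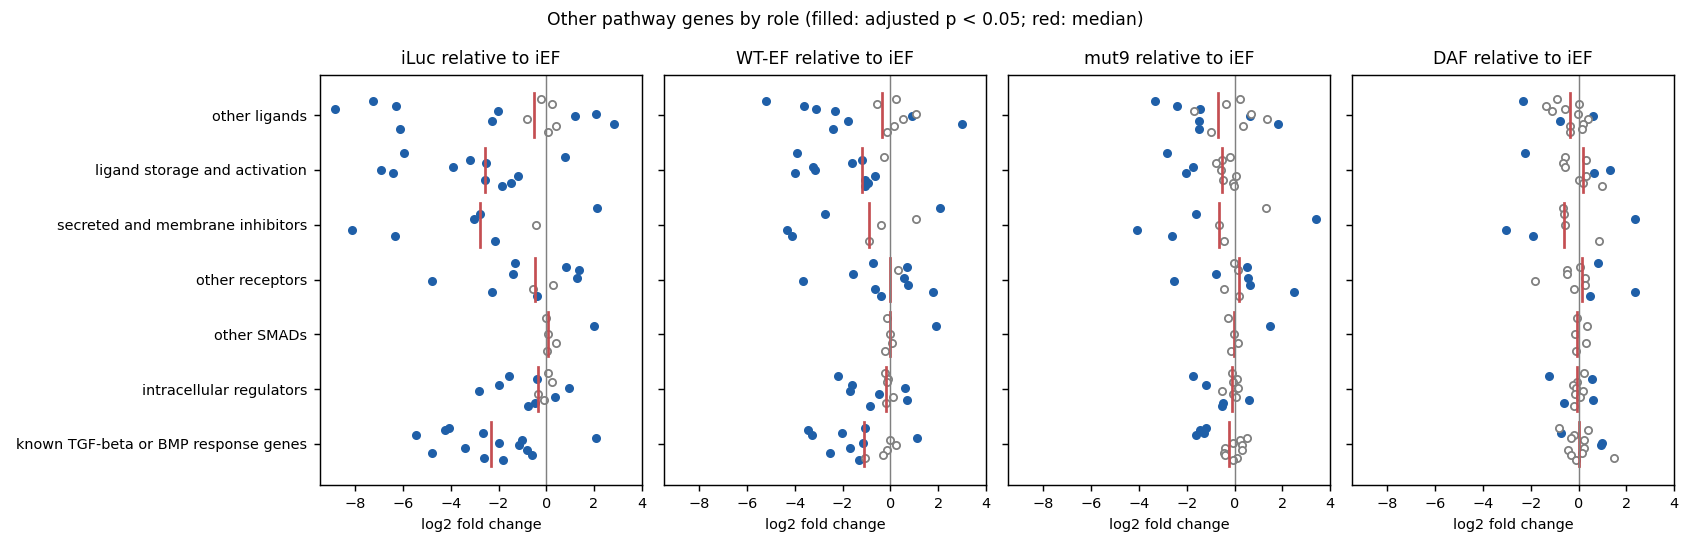
Log2 fold change relative to iEF of the 73 tested pathway genes, by role, in 4 groups. Each point is a gene, filled where called at an adjusted p below 0.05, and the red line is the median of the role. Storage and response genes lie mostly left of zero in iLuc and WT-EF and on both sides of it in DAF.

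Ordered by mean level, 9 members were lowest in iLuc, while SMAD6 was highest in WT-EF and lowest in DAF-mut9, with every neighbour in its order overlapping. TGFBR1, TGFBR2, SMAD3, SMAD7, TGFB1 and TGFBI were lowest in iLuc and next in WT-EF, and for each of the 6 the 3 iLuc libraries lay apart from those of WT-EF. For TGFB2, TGFB3 and TGFBR3 the iLuc range overlapped that of its neighbour, so that order is within the spread. Above WT-EF, mut9 came next for TGFBR1, TGFBR2, SMAD3, TGFBI and TGFB2, apart from its neighbours on both sides. It also came next for SMAD7, where it overlapped DAF, and for TGFBR3, where it overlapped both neighbours. At the upper end DAF was highest for TGFB1, apart from DAF-mut9, the next, and highest for TGFB3 and TGFBR2 within the spread of neighbours. Among the 4 groups above mut9, which are DAF, DAF-mut9, del22 and iEF, neighbours in the order overlapped for TGFBR1, TGFBR2, SMAD3 and TGFBI.

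Across the 21 libraries, which share group effects and are not independent, the log2 levels of TGFBR1 and TGFBI were the most alike pair of members (Pearson r = 0.974), followed by TGFBR1 and SMAD3 (0.944) and TGFBR2 and SMAD3 (0.943), and this is given as a description. Among 10779 genes with a mean of at least 5 CPM, the most like TGFBR1 were SYNJ2 (0.992), RUNX1 (0.990) and MLPH (0.990). TGFBR2 was most like CTNNA1 (0.988), SMAD3 most like FMNL3 (0.988) and COL6A1 (0.986), and TGFBI most like PRICKLE2 (0.989). For TGFB1 the closest was FURIN (0.960), the protease known to cut the TGF-beta precursor. FURIN was at 51.0 ± 7.16 CPM in iLuc, 117 ± 21.7 in iEF, 75.7 ± 7.97 in WT-EF, 121 ± 6.67 in mut9 and 143 ± 7.61 in DAF. Its log2 differences from iEF were -1.20 in iLuc, -0.63 in WT-EF, 0.04 in mut9 and 0.29 in DAF, the first 2 called (adjusted p = 1.24e-07 and 0.000557). TGFB2 was most like RNF146 (0.963), TGFB3 most like GBP2 (0.928), SMAD7 most like STX1A (0.956), SMAD6 most like HNRNPH1 (0.894), and TGFBR3, with the weakest match, most like ARRDC2 (0.850).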

How the data were processed

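The libraries were paired-end RNA-seq. The authors mapped their reads with STAR (version 2.5.1b in the submitters' processing notes) on hg19, and the deposited raw count per Ensembl gene came from htseq-count in its intersection-strict mode. The annotation release and the strand setting are not given in the sources used here. A second deposited table holds a ComBat-adjusted signal for 26325 genes, in which the authors removed differences between replicate sets but not between library sizes, and it served as an alternative only. Their table of fold changes, standard errors and adjusted p-values was not used.

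The raw counts were fitted with edgeR 4.0.16 under R 4.3.3. Genes averaging 1 count or more in a library were kept, 30549 of 57820, and scaled by TMM. One quasi-likelihood fit to the 21 libraries had terms for group and for replicate set. Genes were called at a Benjamini-Hochberg adjusted p below 0.05 over all genes tested. Values are log2 differences ± SE, and levels are CPM as mean ± SD of 3 libraries, or per kilobase of annotated exon. The count table has 5 summary lines that hold no values.

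The members, the pathway list and its roles were chosen with earlier results of these data known. Named pathway genes were up to 3 each way per role with the largest change in iLuc minus iEF among those called, at 5 CPM or more on average and of 1 direction in the 3 replicate sets. SMAD1, SMAD2, SMAD4 and SMAD5 were added after their values were seen, to complete the family. Some listed genes are not reported here. The replicate set was a block in the main model because the authors adjusted for it. Deviations from group means correlated above 0.1 in 42 of 63 same-number pairs of libraries (median 0.158) and in 18 of 126 other pairs (median -0.0906).

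Replicate libraries all differed beyond counting noise. The scripts were tested on simulated counts. Alternatives were DESeq2 1.42.0 with the block, no block, RLE scaling, no low-count filter, the filterByExpr filter, only the compared groups in the fit, ComBat-adjusted values with limma 3.58.1 (log2 with a pseudocount of 0.5), an added 2-fold threshold, and leaving out each library. Gene coordinates on GRCh37 were read from GENCODE release 44 (lifted annotation), and promoters are RefSeq windows on GRCh38.p14.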

Additional observations from a re-analysis of the deposited data

Results flagged for a closer look

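The effect of changing tyrosines differed between the shortened and the full-length EWS domain for 3 members by the interaction test in edgeR. For TGFB1 the interaction was -1.24 ± 0.18 (log2, ± SE, adjusted p = 0.000269), from a tyrosine effect of 1.28 in the full-length and 0.04 in the shortened domain. For TGFB3 it was -1.47 ± 0.32 (adjusted p = 0.0103), from effects of 1.44 and -0.02. For SMAD3 it was -1.52 ± 0.28 (adjusted p = 0.00318), from effects of 2.32 and 0.80. All 3 genes had the same sign in all 3 replicate sets, while the TGFB3 call was lost without WT-EF replicate 2 (adjusted p = 0.0572) or mut9 replicate 1 (adjusted p = 0.0737). The constructs do not carry the same set of changed tyrosines, so the interaction also holds that difference. It holds the difference between mut9 and WT-EF as well, and mut9 was not called lower than iEF for TGFB1 (0.18) or TGFB3 (0.15). Relative to iEF, SMAD3 fell by less in mut9 (-1.09) than in WT-EF (-2.39). Single outlying libraries were not tested in these groups of 3.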

How the results depend on the processing

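The members' log2 differences were repeated 2140 times under the alternatives other than the 2-fold threshold, which was applied to counts of calls only. Of these values, 2015 kept their side of the threshold, 86 lost a call and 39 gained one. No value called in the main or the alternative fit changed direction, while values called in neither were not checked for direction. Of 81 calls, 61 held in every one of these alternatives. The number of members called moved by more than 1.5 times in these cases. A 2-fold threshold left 5 in mut9 minus iEF, 1 in DAF minus iEF, 0 in DAF-mut9 minus iEF, 2 in WT-EF minus iLuc, 2 in mut9 minus WT-EF, 3 in mut9 minus DAF, 2 in mut9 minus del22, 0 in DAF minus del22 and 3 in DAF-mut9 minus mut9. With no replicate block (the fit without pairing of replicate sets) 3 were called in mut9 minus DAF and 0 in DAF-mut9 minus iEF. Fitting only the compared groups gave 0 in DAF-mut9 minus iEF, 1 in del22 minus iEF, 9 in mut9 minus WT-EF and 5 in the interaction. ComBat-adjusted values gave 0 in DAF-mut9 minus iEF, DESeq2 gave 1 in del22 minus iEF, and no low-count filter gave 3 in del22 minus iEF, 3 in DAF minus del22 and 5 in the interaction. For the pathway list, a 2-fold threshold left 8, 6 and 5 called in DAF, DAF-mut9 and del22 minus iEF, no low-count filter gave 31, 21 and 23, ComBat-adjusted values gave 6 in DAF-mut9 and 4 in del22, and no replicate block gave 6 in del22. The cause of these shifts was not tested, except that a 2-fold threshold can only remove calls. Leaving out single libraries gave 9 to 10 members in iLuc minus iEF, 10 in WT-EF minus iEF, 4 to 7 in mut9 minus iEF, 3 to 5 in DAF minus iEF, 0 to 1 in DAF-mut9 minus iEF, 0 in del22 minus iEF, 6 to 7 in WT-EF minus iLuc, 3 to 5 in mut9 minus WT-EF, 8 in DAF minus WT-EF, 8 to 9 in WT-EF minus del22, 2 to 5 in mut9 minus DAF, 2 to 5 in mut9 minus del22, 1 in DAF minus del22, 3 to 6 in DAF-mut9 minus mut9, 0 in DAF-mut9 minus del22 and 2 to 3 in the interaction. The pathway counts were 52 to 56 in iLuc, 43 to 50 in WT-EF, 26 to 32 in mut9, 14 to 19 in DAF, 6 to 12 in DAF-mut9 and 3 to 9 in del22. The del22 count was lowest without del22 replicate 3. With 3 libraries a group, a difference that was not called is bounded only by its interval.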
